A study of Oryctolagus cuniculus with 9 samples.

Results

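Cartilage defects that had received the CLCS scaffold were compared directly with defects left untreated, 12 weeks after surgery, in 6 of the 9 RNA sequencing libraries of the series. The members were the 3 CLCS treated and the 3 untreated samples by their labels, and the 3 healthy cartilage samples served only as a reference for levels. All tissue came from New Zealand White rabbits, aged 4 to 5 months when selected for the study by its methods. A full-thickness defect 5 mm wide and 1 mm deep was cut into the trochlear groove of the knee, the channel in which the kneecap slides. In the CLCS group the defect was filled with a porous scaffold of collagen and chondroitin sulfate. In the untreated group the wound was closed over an empty defect. The methods place the scaffold in the right knee and the empty defect in the left, so the side of the body and the treatment cannot be told apart. Healthy tissue was taken from the condyle, a different site of the joint. The labels name no transgene or other genetic change. The labels do not name the animal behind a sample, and do not say whether tissue of several animals was pooled.

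Articular cartilage is a tissue without vessels in which chondrocytes maintain a network of type II, IX and XI collagen filled with aggrecan, a proteoglycan that carries chondroitin sulfate chains and holds water. A full-thickness defect heals mostly with fibrous tissue rich in type I and III collagen, or with cartilage that calcifies and turns to bone. Matrix metalloproteinase 13 (MMP13), the main collagenase acting on type II collagen, marks cartilage turnover and hypertrophic chondrocytes. The comparison asks whether a defect that held the scaffold differed in these programmes from one that did not.

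The 6 libraries held 724986 to 1226408 reads assigned to genes. Markers of cartilage and bone were both present: the recovered reads of COL2A1 spanned 505 to 20508 and those of IBSP, a bone matrix sialoprotein, 616 to 2949. Markers of other cells ranged widely. For endothelium PECAM1 and VWF had at most 4 and 2 reads and EMCN 0, while ERG reached 14. Among macrophage genes MARCO had 0 and CD163 at most 1, while ITGAM reached 52, TYROBP 166 and STAB1 526 to 1139. ACTA1 of skeletal muscle had 0 in every library. Housekeeping genes were low, with 33 to 128 reads of ACTB and 15 to 37 of GAPDH, while ND6 took 92.0 to 94.4% of the reads of the 13 mitochondrial genes. Whether the count used strand is not given in the sources used here. ENSOCUG00000023467, a gene without symbol, took 20.2, 31.4 and 49.4% of the reads in the CLCS libraries and 23.4, 17.8 and 1.49% in the untreated ones. Untreated replicate 3 stood apart from both other untreated libraries in this gene and in cartilage matrix genes, so the main values that rest on it are given with and without the third pair.

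No gene was called different between CLCS and untreated defects. Of 3275 genes tested with limma on log2 normalized reads, 0 (0%) had an adjusted p under 0.05, and the smallest Benjamini-Hochberg adjusted p was 0.944. DESeq2 and the quasi-likelihood test of edgeR also called 0, with 76 and 88 genes at an unadjusted p under 0.05. In limma 95 genes (2.90% of those tested) had an unadjusted p under 0.05, 40 with a higher mean (1.22%) and 55 with a lower mean (1.68%) in CLCS defects. The log2 fold change, CLCS over untreated, was positive for 1620 genes and negative for 1655, with a median of -0.004. All 3 CLCS values lay outside the range of the untreated values for 273 genes (8.34%), above it for 125 (3.82%) and below it for 148 (4.52%).

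The 6 libraries could place a typical log2 fold change within ±0.816, the median reach of its 95% interval to either side, and 1317 genes had an interval that stayed between -1 and 1. For the remaining genes the interval reached past a 2-fold difference in at least one direction. The p-values measure the spread between these samples, and nothing in the labels says that they came from separate animals.

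Equal replicate numbers were treated as pairs on the ground given under the processing. Within the pairs, 898 genes (27.4%) differed in the same direction 3 times, 432 of them higher (13.2%) and 466 lower (14.2%) in CLCS. With the pair as a block, 164 genes (5.01%) had an unadjusted p under 0.05, 85 of which were also among the 95, and the adjusted p again called 0. The pairs were unequal in size of effect. A difference of more than 2 on the log2 scale was found for 10 genes in pair 1, 44 in pair 2 and 135 in pair 3. The count of 95 was 207 without untreated replicate 3 and 146 without CLCS replicate 1.

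**Figure D1:**
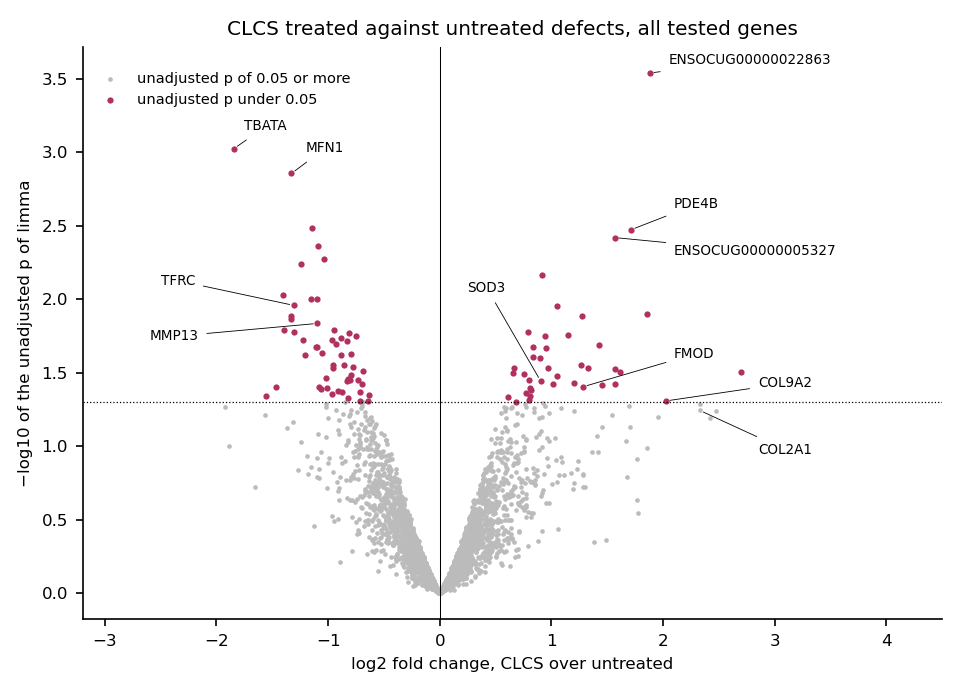
Each point is 1 of the 3275 tested genes, with its log2 fold change (CLCS over untreated, 3 libraries each) on the x axis and −log10 of its unadjusted limma p on the y axis. Above the dotted line, an unadjusted p of 0.05, lie 40 genes to the right and 55 to the left, and none of them passed the adjustment.

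Cartilage matrix genes had higher means in CLCS than in untreated defects, but the size of the difference came from the third pair. All 9 tested genes of the cartilage matrix list, of 16 in the table, had a positive log2 fold change, with a median of 0.89 against -0.004 over all genes tested, and 0 were called. COL9A2 was the 1 member with an unadjusted p under 0.05, against 2.90% of all tested genes. COL2A1 and COL9A2 were the 2 without overlap between the groups, against 8.34% of all tested genes. The median of the list was -0.17 in pair 1, 0.74 in pair 2 and 2.38 in pair 3. Without pair 3 it was 0.15, with 8 of 9 members positive. In these bulk samples, fewer chondrocytes and less RNA per chondrocyte cannot be told apart.

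COL2A1, the chain of type II collagen, had 8816, 4062 and 458 normalized reads in untreated replicates 1 to 3 and 8971, 9082 and 25533 in the CLCS replicates. All CLCS values lay above all untreated ones, by little in the first pair and by far in the third. Healthy cartilage had 8610, 7968 and 6874, near untreated replicate 1 and CLCS replicates 1 and 2. COL2A1 had a log2 fold change of 2.33 ± 1.03 (SE, n = 3 and 3), with a 95% interval of -0.09 to 4.75 and an unadjusted limma p of 0.057 from the fit across all genes. Without the third pair the log2 fold change was 0.59.

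COL9A2, a chain of the type IX collagen that decorates type II fibrils, had 174, 172 and 19.95 normalized reads in untreated and 193, 349 and 629 in CLCS defects. The groups did not overlap, and the lone low value was again untreated replicate 3. COL9A2 had a log2 fold change of 2.03 ± 0.86 (SE), with a 95% interval of 0.01 to 4.04, an unadjusted limma p of 0.0492 and an adjusted p of 0.996. The unadjusted p was 0.0789 with the pair as a block, and the log2 fold change was 0.58 without the third pair.

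The other type IX and XI collagen genes tested had the same shape in pair 3 and differed in pair 1. COL11A2 had 429, 359 and 68.9 normalized reads in untreated and 421, 573 and 911 in CLCS defects, a log2 fold change of 1.45 ± 0.70 (SE), or 0.32 without the third pair. COL9A1 had a log2 fold change of 1.37 ± 0.75 and COL11A1 one of 0.62 ± 0.47, with pair 1 at -0.43 and -0.86, and without the third pair they were at 0.15 and 0.09. In pair 1 these genes were level or lower in the CLCS defect, and in pairs 2 and 3 they were higher.

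ACAN, which encodes aggrecan, had 279.7, 276 and 99.7 normalized reads in untreated and 248, 383 and 524 in CLCS defects, with 574, 526 and 307 in healthy cartilage. Its log2 fold change was 0.89 ± 0.49 (SE), with a 95% interval of -0.24 to 2.03, and 0.15 without the third pair. HAPLN1, the link protein that ties aggrecan to hyaluronan, had a log2 fold change of 0.23 ± 0.62, which was -0.51 without the third pair. CILP, a secreted protein of the middle zone of cartilage, had 64.4 to 145 normalized reads in untreated, 116 to 152 in CLCS and 436 to 1332 in healthy tissue. CILP was thus lower in every defect library than in every healthy one, treated or not. COL27A1 completed the tested members with a log2 fold change of 0.45 ± 0.36. SOX9, the transcription factor that maintains chondrocytes, had 4 to 6 reads in untreated and 4 to 9 in CLCS libraries and was too low to be tested.

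**Figure D2:**
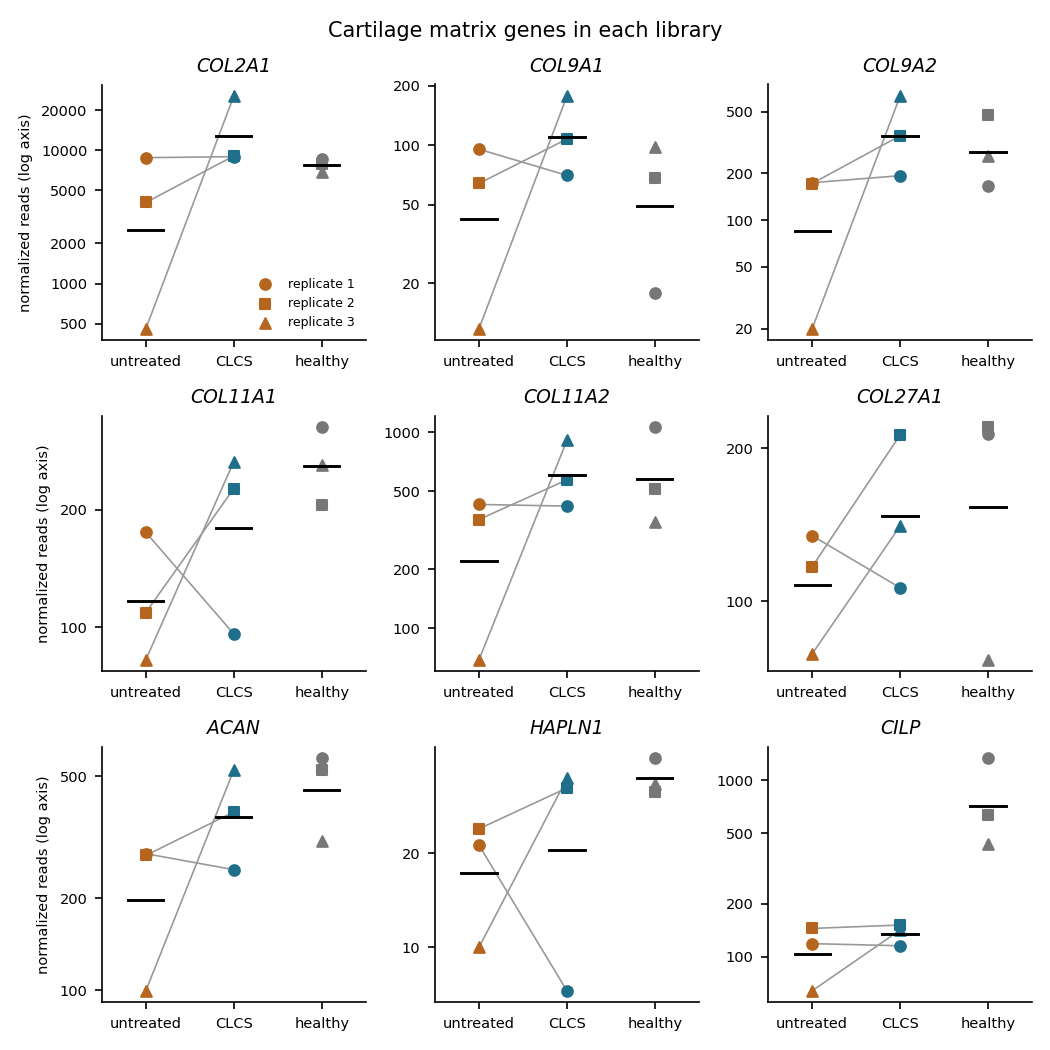
Normalized reads (log axis, a separate range for each gene) of the 9 tested cartilage matrix genes in untreated, CLCS and healthy libraries. Grey lines join replicates of equal number, and black bars are group means on the log2(value + 1) scale. The triangle of untreated replicate 3 is the lowest defect value for 8 of the 9 genes, and HAPLN1 is the exception.

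Some markers of other cells were also high in untreated replicate 3, and others were not. The summed normalized reads of the fibrous repair list were 7182, 3312 and 8926 in untreated and 6484, 4942 and 9114 in CLCS defects. CLCS replicate 3 had the highest of these sums. The sums of the monocyte and macrophage list were 509.7, 595 and 1314 in untreated and 829, 805 and 1164 in CLCS defects. Healthy cartilage had 319 to 575. STAB1 alone held 1033 of the 1314. CD68 had 23, 14 and 22 reads in untreated replicates 1 to 3, CSF1R 13, 15 and 18, and CD14 8, 2 and 4. The macrophage adaptor TYROBP had 13.4, 9.0 and 151 normalized reads in untreated defects, against 27.9 to 34.9 in CLCS, and the complement gene C1QA had 12 reads in untreated replicate 3 and at most 3 in any other defect library. The part of these cells in the cartilage result was not tested.

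Of the tested genes that the results text of the study names for the sequencing, MMP13 had the lowest log2 fold change. It had 70.1, 71.0 and 116 normalized reads in untreated and 51.7, 27.6 and 39.8 in CLCS defects, so that every CLCS value lay below every untreated one. Healthy cartilage had 4.71, 4.06 and 3.61, far below both defect groups. The mean was 39.7 ± 12.1 (SD, n = 3) in CLCS and 85.7 ± 26.3 (SD, n = 3) in untreated defects. MMP13 had a log2 fold change of -1.10 ± 0.35 (SE), 2.14-fold lower, with a 95% interval of -1.90 to -0.29 and an unadjusted limma p of 0.0146, and its adjusted p was 0.996. MMP13 was lower in 3 of 3 pairs, by 0.43, 1.33 and 1.52 on the log2 scale. Its log2 fold change stayed between -1.43 and -0.86 under the 20 alternatives, and without the third pair it was -0.88 with an unadjusted p of 0.0712.

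The other proteases and inhibitors were mixed in direction. Of 31 members in the table, 10 were tested. Of these, 5 had a positive and 5 a negative log2 fold change, with a median of -0.05. MMP13 was the 1 member with an unadjusted p under 0.05, against 2.90% of all tested genes. ADAMTS4, an aggrecanase, had 56.7, 59.0 and 74.3 normalized reads in untreated and 55.8, 59.0 and 42.3 in CLCS defects, a log2 fold change of -0.27 ± 0.27 (SE). MMP9, the gelatinase of osteoclasts and neutrophils, had 60.7, 67.0 and 18.1 in untreated and 94.0, 48.2 and 22.4 in CLCS, a log2 fold change of 0.15 ± 0.65. HTRA1, a serine protease of cartilage matrix, was at 0.18 ± 0.60 in limma and at -0.03 in edgeR. MMP19, another metalloproteinase, was lower in 3 of 3 pairs, at -0.31 ± 0.37. ADAMTS5 had 3 to 11 reads in the defect libraries and MMP3 0 to 1, and neither was tested.

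Among osteoclast genes, 3 of 12 in the table were tested. CTSK, the collagen-cleaving cathepsin of osteoclasts, had 74.8, 63.0 and 43.5 normalized reads in untreated and 53.7, 36.4 and 17.4 in CLCS defects, and 0.903 to 17.9 in healthy cartilage. The groups overlapped, yet CTSK was lower in the CLCS member of every pair. CTSK had a log2 fold change of -0.84 ± 0.44 (SE), with an unadjusted limma p of 0.0974, and of 0.0239 with the pair as a block. CA2, the carbonic anhydrase that supplies acid for bone resorption, had a log2 fold change of -0.80 ± 0.36, with an unadjusted p of 0.0606 in limma and 0.0369 with the block. MMP9 was the third tested gene. The others were too low to be tested. ATP6V0D2, a proton pump subunit of osteoclasts and the most abundant of them, had 30, 11 and 4 reads in untreated and 8, 4 and 0 in CLCS libraries. CALCR and TNFRSF11A had at most 8 in any defect library. Over all 12 members the mean was higher in CLCS for 7 and lower for 5. The median of the 3 tested genes was -0.80 and kept its sign under 17 of 19 alternatives.

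Small leucine-rich proteoglycans, which bind collagen fibrils and set their diameter, were mixed. All 13 members were in the table and 7 were tested, 4 with a positive and 3 with a negative log2 fold change and a median of 0.43. FMOD, fibromodulin, had 33.9, 15.0 and 10.9 normalized reads in untreated and 27.9, 41.3 and 77.2 in CLCS defects, and 35.5 to 94.2 in healthy cartilage. The groups overlapped, since untreated replicate 1 lay above CLCS replicate 1. For FMOD the log2 fold change was 1.28 ± 0.51 (SE), with an unadjusted limma p of 0.0394 and 0.0749 with the block, and it was 0.57 without the third pair. BGN, biglycan, was at 0.69 ± 0.39 and PRELP at 0.87 ± 0.54, or 0.34 and 0.22 without the third pair. LUM, lumican, was at -0.42 ± 0.87, and PODN, podocan, at -0.14 ± 0.24.

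**Figure D3:**
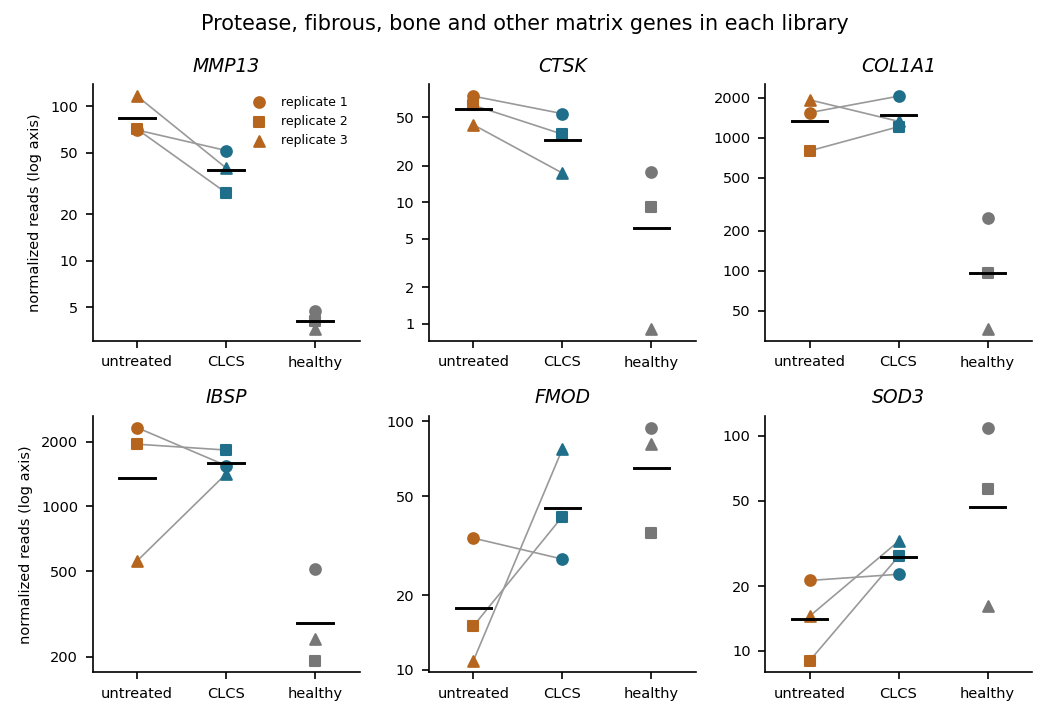
Normalized reads (log axis, a separate range for each gene) of MMP13, CTSK, COL1A1, IBSP, FMOD and SOD3 in untreated, CLCS and healthy libraries, with lines joining replicates of equal number and black bars for means on the log2(value + 1) scale. MMP13 and SOD3 are the 2 genes whose CLCS and untreated points do not overlap.

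Fibrous repair genes had no common direction and varied widely within the groups. Of 22 members in the table, 16 were tested, 10 with a positive and 6 with a negative log2 fold change and a median of 0.16, which was -0.07 in edgeR. None had an unadjusted p under 0.05 in limma, and none was without overlap between the groups. Over all 22 members the mean was higher in CLCS for 8 and lower for 14. COL1A1, a chain of type I collagen, had 1542, 795 and 1925 normalized reads in untreated and 2052, 1208 and 1326 in CLCS defects, against 36.1 to 247 in healthy cartilage. The groups overlapped, and both lay above every healthy value. The log2 fold change of COL1A1 was 0.16 ± 0.40 (SE), with a 95% interval of -0.78 to 1.10. COL1A2 was at -0.15 ± 0.30, with an interval of -0.85 to 0.54 that leaves out a 2-fold difference in either direction. COL3A1 had 618, 79.0 and 1832 normalized reads in untreated and 508, 399 and 1798 in CLCS defects, a log2 fold change of 0.67 ± 1.12. SPARC, a calcium-binding matrix protein, was at 0.48 ± 0.46, or -0.02 without the third pair, and POSTN, periostin, at 0.00 ± 0.37.

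Genes of hypertrophy and bone, 9 of 14 tested, had 7 positive and 2 negative log2 fold changes and a median of 0.22, which was -0.02 without the third pair. IBSP had 2323, 1946 and 559 normalized reads in untreated and 1548, 1828 and 1417 in CLCS defects, a log2 fold change of 0.22 ± 0.53 in limma, -0.01 in edgeR and -0.34 without the third pair. SPP1, osteopontin, was at -0.10 ± 0.49, and BMP2K, a kinase regulated during osteoblast differentiation, at -0.18 ± 0.39. BGLAP, osteocalcin, had 210.3, 140.0 and 216 in untreated and 302, 223 and 238 in CLCS defects, so that the groups did not overlap, at a log2 fold change of 0.44 ± 0.29 and an unadjusted limma p of 0.17. BGLAP overlaps PAQR6 in RefSeq, and reads of the overlapping genes cannot be told apart without strand. COL10A1, the collagen of hypertrophic chondrocytes, had 38.6, 112 and 47.1 in untreated, 20.7, 107 and 121 in CLCS and 79.2 to 108 in healthy libraries, with no order between the groups.

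Enzymes that make chondroitin sulfate, the glycosaminoglycan of the scaffold, were mostly too low to test. Of 23 in the table, 5 were tested, 1 with a positive and 4 with a negative log2 fold change and a median of -0.13. PAPSS1, which makes the sulfate donor, had 59.9, 64.0 and 68.0 normalized reads in untreated and 48.6, 37.4 and 59.8 in CLCS defects. Its groups did not overlap, the closest values being 59.9 and 59.8, and its log2 fold change was -0.41 ± 0.27 (SE) with an unadjusted limma p of 0.173. PAPSS2, its partner, was at -0.49 ± 0.38, CSGALNACT2, a chain-starting transferase, at -0.13 ± 0.34, and UGP2, which makes UDP-glucose, at -0.05 ± 0.47. CHST3, a chondroitin sulfotransferase, was the member with a positive value, 0.45 ± 0.29, or 0.17 without the third pair.

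Genes that modify, crosslink or take up collagen, the other component of the scaffold, had 11 positive and 3 negative values among 14 tested of 25, with a median of 0.32. That median kept its sign under 19 of 19 alternatives, between 0.06 and 0.33, and no member had an unadjusted p under 0.05. LOXL3, a lysyl oxidase that crosslinks collagen, had 147, 136 and 78.0 normalized reads in untreated and 148, 220.4 and 329.9 in CLCS defects, a log2 fold change of 0.92 ± 0.40 with an unadjusted limma p of 0.0508, and 0.35 without the third pair. All its CLCS values lay above the untreated ones, the first pair by little. MRC2, an endocytic collagen receptor, was at 0.75 ± 0.40, and LOX, the enzyme for which the family is named, at -0.59 ± 0.42. ITGA11, a collagen-binding integrin, was level, at 216, 244 and 203 in untreated and 213, 259 and 217 in CLCS defects.

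Few immune genes could be measured. Of the inflammatory and protease genes that the study followed early after surgery by PCR, named the 1 week inflammation panel here, 5 of 23 in the table were tested at 12 weeks and all 5 had a negative log2 fold change, with a median of -0.12 and with MMP13 and SPP1 among them. IL23A, a subunit of interleukin 23, had 27.6, 59.0 and 33.5 normalized reads in untreated and 19.6, 34.4 and 8.72 in CLCS defects, a log2 fold change of -1.02 ± 0.52 with an unadjusted limma p of 0.0871 and 0.0283 with the block, and -0.61 without the third pair. IL23A was lower in the CLCS member of each pair although the groups overlapped. IL1A, interleukin 1 alpha, was at -0.12 ± 0.33. IL10 had 20 reads in untreated replicate 3 and at most 2 in any other defect library.

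Of the monocyte and macrophage genes, 5 of 16 were tested, 3 positive and 2 negative, with a median of 0.09 in limma and -0.21 in edgeR. STAB1, a scavenger receptor, had 435, 526 and 1033 normalized reads in untreated and 725, 696 and 1070 in CLCS defects, a log2 fold change of 0.40 ± 0.39 (SE). The groups overlapped, and STAB1 overlaps NT5DC2 in RefSeq. ITGAM, the integrin CD11b, was at 0.09 ± 0.41 and -0.04 in edgeR, and CD68 at -0.72 ± 0.66, or 0.52 and 0.21 without the third pair. TYROBP was at 0.16 ± 0.94 in limma and -0.91 in edgeR, and at 1.28 without the third pair. Lymphocyte genes had 2 positive and 5 negative values among 7 tested, with a median of -0.11 and no unadjusted p under 0.05.

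Among 26 genes that the results text of the study names for the sequencing, 20 were tested. Of these, 15 had a positive and 5 a negative log2 fold change, with a median of 0.54. The study chose these genes on these samples, so they are not independent evidence of a direction. Its discussion names further genes that are outside this count. DCN, 1 of them, had 55, 10 and 36 reads in untreated and 29, 30 and 33 in CLCS libraries. Of the 20 tested, FMOD, SOD3 and MMP13 had an unadjusted p under 0.05, against 2.90% of all tested genes. SOD3, the extracellular superoxide dismutase, had 21.3, 9.0 and 14.5 normalized reads in untreated and 22.7, 27.6 and 32.4 in CLCS defects, so that the groups did not overlap. Its log2 fold change was 0.90 ± 0.35 (SE), 1.87-fold higher, with an unadjusted limma p of 0.036, and 0.80 without the third pair. Healthy cartilage had 16.3 to 109.

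In the growth pathway through mTOR, TSC2, the brake on mTOR, had 1721, 1119 and 1798 normalized reads in untreated and 2239, 1820 and 5111 in CLCS defects. The groups did not overlap. For TSC2 the log2 fold change was 0.86 ± 0.44 (SE), with an unadjusted limma p of 0.087, or 0.035 with the block, and 0.54 without the third pair. TSC2 overlaps PKD1 in RefSeq, and reads of the overlapping genes cannot be told apart without strand. MTOR itself, which overlaps ANGPTL7 in RefSeq, was at 0.12 ± 0.35, with a 95% interval of -0.70 to 0.93. MAP4K4 was at -0.55 ± 0.38 and MINK1, a related kinase, at 0.73 ± 0.50.

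Vessel and basement membrane genes had 5 positive values among 5 tested of 15, with a median of 0.34, and no unadjusted p under 0.05. Without the third pair 3 of 5 were positive, with a median of 0.45. The tested members were the matrix genes NID2, LAMA4, HSPG2, COL4A1 and COL4A2. Markers of vessel cells such as PECAM1, CDH5 and KDR were too low to be tested. COL4A1 had 77.2, 37.0 and 125 normalized reads in untreated and 123, 66.9 and 116 in CLCS defects, a log2 fold change of 0.46 ± 0.48, and its neighbour COL4A2 was at 0.34 ± 0.44. COL22A1, a collagen of tissue junctions counted in the fibrous repair list, had 30.7, 32.0 and 13.6 in untreated and 53.7, 44.3 and 28.6 in CLCS defects. COL22A1 was higher in the CLCS member of each pair, with a log2 fold change of 0.75 ± 0.41 and an unadjusted p of 0.108, or 0.0263 with the block. ANXA8, a membrane-binding annexin outside both of these lists, was at 0.84 ± 0.51, with 0.141 and 0.0423 in the same order.

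In NF-kB signalling, 4 of 6 tested genes were positive and 2 negative, with a median of 0.07. Without the third pair 2 of 6 were positive, with a median of -0.12. NFKB1 had 15.8, 6.0 and 43.5 normalized reads in untreated and 9.30, 12.8 and 8.72 in CLCS defects, a log2 fold change of -0.64 ± 0.62, which was 0.14 without the third pair. TNIP1, an inhibitor of the pathway whose gene lies next to GPX3 in RefSeq, was at 0.76 ± 0.51, or 0.40 without the third pair. Outside this list, RUNDC3B, which overlaps SLC25A40 and ABCB1 in RefSeq, was at -0.38 ± 0.32. The Wnt inhibitor FRZB had 0 to 6 reads in untreated and 2 to 10 in CLCS libraries, its receptor family member FZD9 0 to 2 and 0 to 5. SEMA3C had 3 to 10 and 0 to 12 reads, IL21 0 to 4 and 1 to 4, and PTGES 0 to 3 and 1 to 6. These 5 genes and SOX9 were not tested. BMP, TGF-beta and Wnt genes were balanced, 4 positive and 3 negative of 7 tested, with a median of 0.00.

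Mitochondrial transcripts lay on the other side of 0. Of 13 mitochondrial genes, 12 were tested, 11 with a negative log2 fold change, with a median of -0.32 that kept its sign under 19 of 19 alternatives, between -0.59 and -0.12. None had an unadjusted p under 0.05 in limma. ND2 was the member farthest from 0, with 121, 96.0 and 90.7 normalized reads in untreated and 69.2, 36.4 and 78.4 in CLCS defects, a log2 fold change of -0.79 ± 0.35 and an unadjusted limma p of 0.057, or 0.0471 with the block. The medians were -0.06, -0.68 and -0.11 in pairs 1 to 3, so the difference was mostly that of pair 2. Mitochondrial genes lie on 1 molecule and are not independent of each other.

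Genes of glycolysis and hypoxia had 7 positive and 2 negative values among 9 tested of 23, with a median of 0.23. ENO1, enolase, had 11.8, 3.00 and 13.6 normalized reads in untreated and 15.5, 14.8 and 21.2 in CLCS defects, which did not overlap, with a log2 fold change of 0.98 ± 0.51 and an unadjusted p of 0.0918, or 0.0483 with the block. PKM, pyruvate kinase, was at 0.94 ± 0.59. Of 42 cytosolic ribosomal protein genes, 16 were tested, 13 positive and 3 negative, with a median of 0.20. Among stress genes, HSPA8, a constitutive chaperone, had 29.1, 15.0 and 36.3 in untreated and 16.5, 8.86 and 7.47 in CLCS defects, a log2 fold change of -1.21 ± 0.43 with an unadjusted limma p of 0.0239, and the groups overlapped. Without the third pair it was -0.74. FOS, an immediate early gene, had 72 reads in untreated replicate 3 and at most 9 in the other defect libraries. Of 6 tested cell division genes, 3 were positive and 3 negative.

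**Figure D4:**
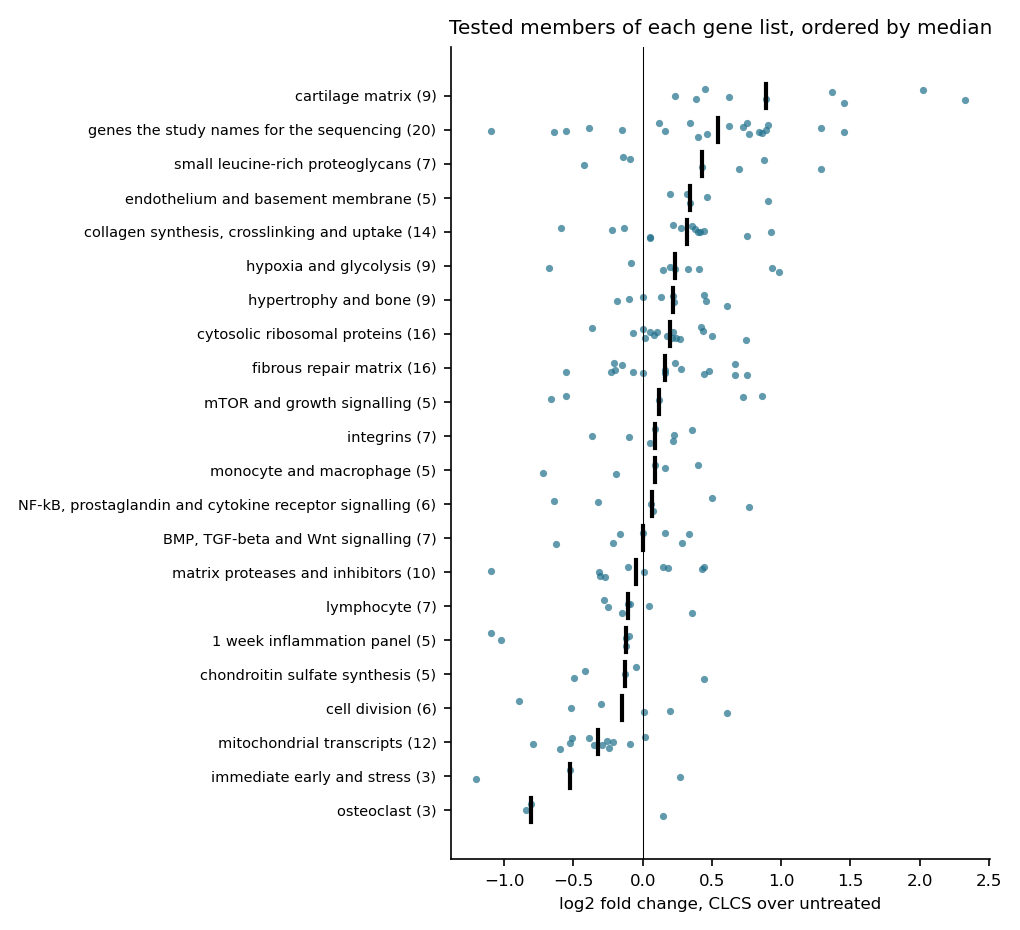
Log2 fold change (CLCS over untreated) of every tested member of each gene list with at least 3 of them, with the number tested in brackets and the median as a black bar. The cartilage matrix list has the highest median, 0.89, with all 9 points to the right of 0, and the osteoclast list the lowest, -0.80, with 3 genes.

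The genes farthest apart among those with an unadjusted p under 0.05 and no overlap between groups were mostly outside these lists. On the positive side, ENSOCUG00000022863, a gene without symbol, had the smallest p of all tested genes. It had 5.51, 4.0 and 2.72 normalized reads in untreated and 15.5, 17.7 and 18.7 in CLCS defects, 9.03 to 15.2 in healthy cartilage, and a log2 fold change of 1.88 ± 0.29 (SE), 3.69-fold higher, with an unadjusted limma p of 0.000288. The difference was of like size in each pair, 1.34, 1.90 and 2.40, but rests on 3 to 7 reads per untreated library. ENSOCUG00000001968 had the largest log2 fold change, 2.70 ± 1.02, with 34.7, 85.0 and 3.63 normalized reads in untreated and 87.8, 144 and 303 in CLCS defects, and 1.03 without the third pair. ENSOCUG00000016171 was at 1.85 ± 0.57, or 1.04 without the third pair.

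ENSOCUG00000005327, also without symbol, had 102, 77.0 and 102 normalized reads in untreated and 163, 365 and 361 in CLCS defects, and 3858 to 6407 in healthy cartilage. All defect libraries were far below the healthy ones, and the CLCS libraries lay above the untreated ones in every pair. Its log2 fold change was 1.57 ± 0.38 (SE), 2.97-fold higher, with an unadjusted limma p of 0.0038, and 1.45 without the third pair. ENSOCUG00000027187 had a like order, with 57.5, 78.0 and 76.2 in untreated, 81.6, 312 and 215 in CLCS and 349 to 1586 in healthy libraries, and a log2 fold change of 1.32 ± 0.49.

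PDE4B, a phosphodiesterase that breaks down cyclic AMP, had 6.30, 7.0 and 2.72 normalized reads in untreated and 13.4, 17.7 and 27.4 in CLCS defects, and 16.0 to 33.4 in healthy cartilage. The groups did not overlap, and the CLCS values reached into the healthy range. PDE4B had a log2 fold change of 1.71 ± 0.40 (SE), 3.28-fold higher, with an unadjusted limma p of 0.00336, and it was 1.10 without the third pair. PDE4B overlaps LOC103350157 in RefSeq and SGCA overlaps LOC103351548, both protein-coding. Reads of the overlapping genes cannot be told apart without strand. LMO7, an adaptor of cell junctions, was at 1.62 ± 0.61, CD40LG, the ligand of CD40 on activated T cells, at 1.57 ± 0.59, and SGCA, a sarcoglycan of the muscle membrane, at 1.42 ± 0.49. Without the third pair these were 1.67, 0.72 and 0.72. The highest value of these 3 genes in a defect library was 44.8 normalized reads, of SGCA in CLCS replicate 3.

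On the negative side, TBATA had 12, 15 and 10 reads in untreated and 3, 3 and 1 in CLCS libraries. Summed over the libraries these were 37 and 7 reads, a ratio of 4.37 with a 95% counting interval of 1.92 to 11.6 that covers counting error only. MFN1, which fuses mitochondria, had 16, 10 and 13 reads in untreated and 3, 4 and 4 in CLCS libraries, a log2 fold change of -1.33 ± 0.27 (SE), 2.51-fold lower, with an unadjusted limma p of 0.00139. The pairs gave -1.73, -1.16 and -1.10. Healthy cartilage had 4.71 to 11.2 normalized reads.

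TFRC, the transferrin receptor that brings iron into cells, had 48.1, 44.0 and 24.5 normalized reads in untreated and 12.4, 10.8 and 22.4 in CLCS defects, and 8.13 to 11.2 in healthy cartilage. Pairs 1 and 2 differed widely and pair 3 hardly. The log2 fold change of TFRC was -1.31 ± 0.39 (SE), 2.48-fold lower, with an unadjusted limma p of 0.011, and it was -1.90 without the third pair. EPHA1, an ephrin receptor gene next to ZYX, was at -1.56 ± 0.65, with an unadjusted limma p of 0.0456, or 0.0687 with the block. Without the third pair EPHA1 was at -0.56. KDM1B, a histone demethylase that overlaps NHLRC1 and TPMT in RefSeq, was at -1.41 ± 0.40, and NUDCD2, which lies next to HMMR, at -1.39 ± 0.45, or -0.74 without the third pair. GPATCH11, which overlaps HEATR5B, was at -1.33 ± 0.41, ENSOCUG00000006338 at -1.33 ± 0.41 and ENSOCUG00000029125 at -1.31 ± 0.43. A copy of 5S_rRNA, ENSOCUG00000028954, was at -1.47 ± 0.59, and its reads are uncertain because 73 genes of the table carry that symbol.

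**Figure D5:**
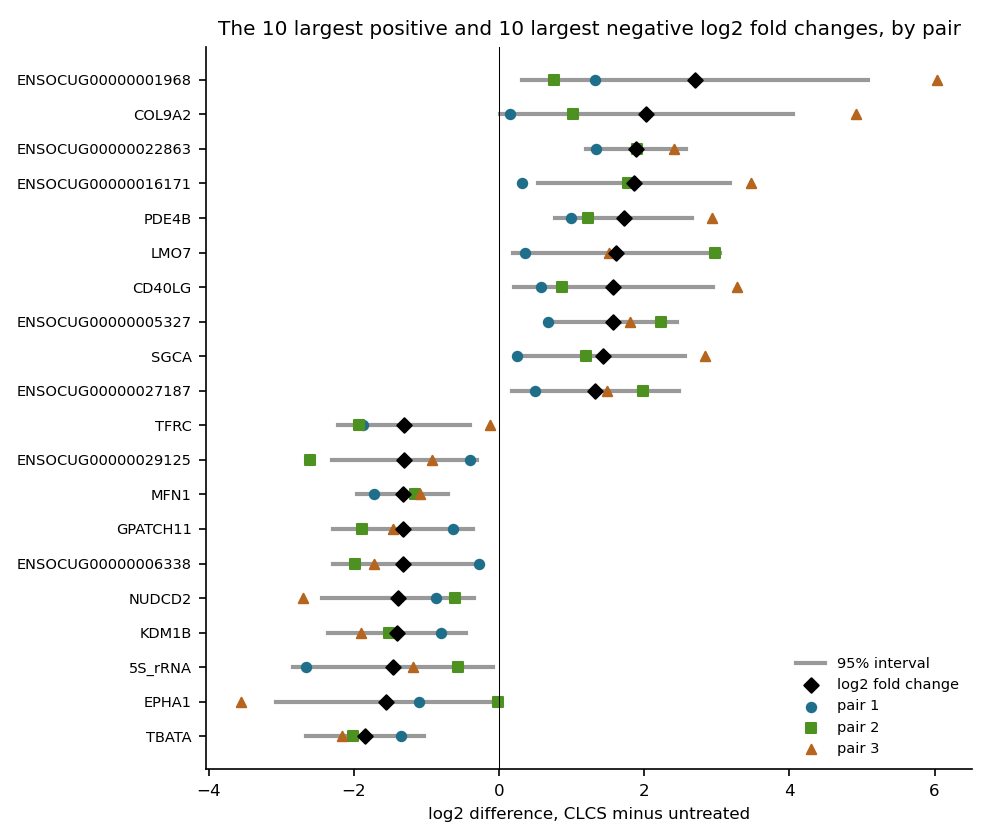
Log2 differences (CLCS minus untreated, x axis) of the 20 genes in each of the 3 pairs, with the limma log2 fold change as a diamond and its 95% interval as a grey line. Pair 3 is the farthest to the right for 7 of the 10 upper genes, among them COL9A2 at 4.91.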

How the data were processed

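RNA sequencing values of 3 CLCS, 3 untreated and 3 healthy libraries were used, grouped by their labels. The authors selected polyA RNA, used TopHat and Bowtie to place paired reads on oryCun2.0, dropped reads with several alignments, obtained counts from eXpress and normalized them in DESeq2, and versions are not given in the sources used here. The deposited signal of a gene is its count divided by a size factor, called normalized reads here. Whole reads were recovered for 100% of the values within 0.001 reads. The tables list 14870 genes, 11076 with a symbol.

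Genes kept by filterByExpr on the recovered reads (3275) were tested in limma 3.58.1 under R 4.3.3 on log2(value + 1), so that fold changes of low genes are understated, with the 6 defect libraries, and called where the Benjamini-Hochberg adjusted p was under 0.05. Unadjusted p-values are two-sided. An exact permutation test of 3 against 3 libraries cannot go below 0.1. Alternatives used edgeR 4.0.16, DESeq2 1.42.0, other scalings, pseudocounts, filters and samples. The pipeline was tested on simulated data. Libraries of equal number were taken as pairs, since the study treated 1 knee of a rabbit and left the other empty. Deviations from the group means correlated across the 3275 genes at 0.26, 0.36 and 0.30 for equal numbers. They were below 0 for the 6 unequal combinations. Deviations within a group sum to 0, so values below 0 there follow in part from the centring and are not separate support. The labels do not state the pairing, which rests partly on the values that were tested.

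Named genes were the 10 largest log2 fold changes in each direction among genes with an unadjusted p under 0.05 and groups without overlap. Genes that the results text of the study names for the sequencing were added. So were list members with an unadjusted p under 0.05 and the 4 most abundant members of 6 lists. Other list members are examples chosen after their values were seen. Lists and members were chosen with earlier results of these data known. Overlapping and neighbouring genes were read by symbol from RefSeq on mOryCun1.1, another assembly than that of the files. Not every overlap is named above. LOXL3 overlaps HTRA2, MINK1 overlaps CHRNE and COL10A1 overlaps NT5DC1, for example.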

Additional observations from a re-analysis of the deposited data

How the results depend on the processing

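No alternative called a gene. The smallest adjusted p over the 20 alternatives was 0.138, in DESeq2. The count of genes with an unadjusted p under 0.05 (95 as reported) was 548 without a filter, of 14093 tested, 32 at a mean of at least 50 normalized reads, of 1190, 164 with the replicate block in limma and 147 with it in edgeR, and 71 to 207 when replicates were left out, with 207 without untreated replicate 3 and 146 without CLCS replicate 1. The count of genes without overlap (273) was 900 without a filter, 98 at a mean of at least 50 and 496 to 1124 when replicates were left out, where smaller groups overlap less by construction. Scaling to equal totals without the most abundant gene moved the median of all genes to -0.149 and split 114 unadjusted calls into 20 higher and 94 lower in CLCS. Of the 58 named genes tested, 42 had 1 sign under all alternatives and 16 did not. Leaving out the same replicate in both groups was chosen after the data were seen. Of the 95 genes, 85 kept an unadjusted p under 0.05 with the replicate block, which called no gene. No gene of the immediate early and stress list was left at a mean of at least 50, so its median has no value there. The number of reads assigned to genes limits the rest: 3275 of 14093 genes with a read in a defect library could be tested. The paper lists far more aligned read pairs per library than the reads assigned to genes here. Why so few were assigned was not tested.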

Other observations

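EPOR and RPS21, list members not described above, are examples of genes that were higher in the CLCS member of each pair and had an unadjusted p under 0.05 with the block only. EPOR, the erythropoietin receptor, had 16.5, 44.0 and 68.9 normalized reads in untreated and 35.1, 76.8 and 84.7 in CLCS defects, a log2 fold change of 0.71 ± 0.57 (SE), with an unadjusted limma p of 0.252, or 0.0408 with the block. RPS21, a protein of the small ribosomal subunit, had 8.67, 11.0 and 20.9 in untreated and 20.7, 17.7 and 28.6 in CLCS defects, a log2 fold change of 0.75 ± 0.38, with 0.0847 and 0.0333. Both were chosen after their values were seen. EPOR lies next to SWSAP1 in RefSeq. It was the 1 tested gene of 9 in the table on the neutrophil, marrow and erythroid list, whose other members were too low to be tested.

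Genes with reads in all 3 libraries of one group and 0 in the other were few and low. There were 28 with reads in CLCS only, with a median of 4 and at most 10 reads summed over the group. There were 109 with reads in untreated defects only, with a median of 5 and at most 19 reads. Both counts are out of 14093 genes with a read in a defect library. Genes with any read numbered 9049 to 9704 in CLCS and 9426 to 10619 in untreated libraries. In CLCS replicate 3, 1 gene took 49.4% of the reads. The part of read depth in the unequal counts was not tested. A count of 0 allows up to 3 reads per library, and 0 of the 28 and 1 of the 109 genes had at least 3 reads in every library of the group that held them.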
